A study of Mus musculus with 30 samples.

Results

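Gene expression in the subventricular zone (SVZ) was compared between wild-type mice given ganciclovir (GCV), which lack the transgene that makes the drug toxic, and wild-type mice given PBS. The SVZ libraries of 3 NestinTK- mice given GCV were compared with those of 3 NestinTK- mice given vehicle, so that 6 of the 15 SVZ libraries and 6 of the 30 libraries of the series entered. These libraries were chosen by their genotype and treatment labels alone. NestinTK- mice are wild-type littermates of NestinTK+ mice, in which the herpes virus thymidine kinase is driven by the nestin second-intron enhancer. All were on the C57Bl/6 strain, and GCV or PBS was delivered by a subcutaneous osmotic minipump. The labels give neither age, sex nor batch for these mice. The mice are named here GCV mouse 1 to 3 and PBS mouse 1 to 3, numbers which only tell them apart.

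The SVZ lines the lateral ventricle and is the largest germinal niche of the adult mouse brain. Astrocyte-like stem cells give rise there to transit-amplifying cells, and these to neuroblasts that migrate to the olfactory bulb. Multiciliated ependymal cells separate the niche from the ventricle, in which the choroid plexus secretes cerebrospinal fluid, while the striatum lies beneath. GCV is a guanosine analogue that the viral kinase phosphorylates and that then stops DNA synthesis in dividing cells. Mammalian kinases phosphorylate it poorly, so that wild-type mice given GCV serve as the control for the drug without ablation.

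Total counts ranged from 8947137 to 21056005 a library, with 16632 to 21340 genes detected. Ttr, the thyroxine carrier that is the main transcript of choroid plexus, took 4.49% and 9.88% of the counts of PBS mice 1 and 2 and at most 0.0169% in the other 4 libraries. Mitochondrial transcripts took 6.69% to 15.2% of the counts. For 5 library measures (total, genes detected, and the shares of Ttr, of mitochondrial genes and of the largest 10 genes) the two-sided exact permutation p between the groups was 0.2 to 0.8, where 0.1 is the smallest that 3 against 3 allow. The GCV libraries carry the numbers 5, 6 and 8 and the PBS libraries 17, 18 and 19, so treatment and library order cannot be told apart. The cell type label names neural precursor cells, but the libraries are of dissected tissue: the 18 medium spiny neuron markers summed to 7538 to 14137 counts per 1000000 (CPM) and the 20 neuroblast markers to 1428 to 2373 CPM. Xist, the RNA of X inactivation in female cells, was at 119 to 316 CPM in all 6 libraries. In such tissue, fewer cells of a type and less RNA per cell cannot be told apart.

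A gene was tested when 3 or more of the 6 libraries had it above 1 CPM, which 13677 genes met. With GCV 127 of them were called lower and 48 higher, where a call needed p of 0.01 or less and a 2-fold change. These are 0.929% and 0.351% of the genes tested. No gene reached an adjusted p under 0.05 with edgeR, whose smallest was 0.128, for Sostdc1. That gene entered the test only through the PBS mice. At an unadjusted p under 0.05 there were 795 genes, or 5.81%. With limma-voom 0 genes and with DESeq2 97 genes reached that adjusted p. The largest adjusted p among the called genes was 0.733. The 175 called genes are therefore described here as a ranked set and not as a set that survives correction. The median log2 fold change of all genes tested was -0.01, and the median change of the called genes was 9.40-fold for those lower and 4.64-fold for those higher. Every GCV mouse lay under every PBS mouse for 746 genes (5.45%) and over every PBS mouse for 906 genes (6.62%). Of the called genes, 103 of 127 and 44 of 48 had groups that did not overlap.

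These calls rested on few mice. Without PBS mouse 2 the number lower was 32, without PBS mouse 1 it was 63, and without GCV mouse 3 the number higher was 9, while without GCV mouse 2 and without PBS mouse 2 it was 74 and 91. The genes called in each of the 6 fits that leave out 1 mouse were 12 lower, among them Vcam1, Fuca1, Kl, Fxyd1, Ucp2, Amotl1, Cd63, Vipas39, Clic6, Ttr and Brwd3, and 4 higher, namely Atp2b4, Sema4a, Cdk14 and Tmem132d. Amotl1, Vipas39 and Cdk14 were called in each of the 18 alternative fits as well.

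The choroid plexus list had the lowest median of the 31 lists examined. Of the 25 genes on this list 18 were tested, 11 of them were called lower and none higher, and their median log2 fold change was -4.63. Of the 11, Sostdc1 and Cldn1 entered the test only through the PBS mice, so that their calls are no support for the list. The summed level of the list was 733, 252 and 582 CPM in the GCV mice against 52616, 114775 and 548 CPM in the PBS mice. PBS mouse 3 thus lay within the GCV range, and the difference was carried by PBS mice 1 and 2. With those 2 libraries left out of a fit of the other 13 SVZ libraries, the median of the list was 0.41 and 1 member was called lower.

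Ttr itself was at 169, 23.5 and 1.40 CPM with GCV and at 44879, 98809 and 109 CPM with PBS. The groups overlapped, since GCV mouse 1 was above PBS mouse 3, and the log2 fold change was -9.58 ± 2.29 (SE, adjusted p = 0.602). Enpp2, which encodes autotaxin, was at 442, 121 and 395 CPM against 5204, 11010 and 232 CPM (log2 fold change -4.18 ± 1.04, adjusted p = 0.602). Kl, the klotho gene, was at 0.22, 2.08 and 2.81 CPM against 313, 721 and 0.22 CPM. For Ttr, Enpp2 and Kl alike, PBS mouse 3 was no higher than the highest GCV mouse.

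For other members of the list every PBS mouse was above every GCV mouse, though only narrowly for Clic6 and Otx2. Sostdc1, a secreted antagonist of BMP and Wnt signals, had 1, 0 and 0 counts with GCV and 2941, 8122 and 114 counts with PBS. The pooled ratio was 9016 (95% exact counting interval 1618 to 356151, which covers counting error only). Clic6, a chloride channel-like protein, was at 8.95, 32.7 and 7.92 CPM against 217, 497 and 33.0 CPM, with the lowest PBS mouse just above the highest GCV mouse. Otx2, the homeobox gene of the choroid plexus, was at 0, 0.11 and 4.21 CPM against 52.1, 122 and 4.81 CPM. Car12, a carbonic anhydrase, was at 0.88, 15.8 and 15.5 CPM against 112, 215 and 31.1 CPM. The remaining called members were F5, Cldn1, Lbp and Kcne2.

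Several called genes of other lists had the same shape across the 6 mice. Igfbp2, an IGF-binding protein, was at 8.66, 0.11 and 20.3 CPM with GCV and at 293, 531 and 9.05 CPM with PBS (log2 fold change -4.94 ± 1.39, adjusted p = 0.669). It was the only called gene among 14 tested on the IGF axis list, whose median was -0.29. Slc29a4, a membrane transporter of the equilibrative nucleoside family, was at 2.5, 3.72 and 0.41 CPM against 82.8, 164 and 1.56 CPM. It was the only called gene among 25 tested for nucleoside uptake, phosphorylation and export, whose median was -0.15. Col8a1, Col8a2 and Col9a3 were called lower among 21 tested collagens, Pcolce among 11 meningeal fibroblast genes, and Ifi27 among 19 interferon and antigen presentation genes. For all 7 of these genes PBS mouse 3 was no higher than the highest GCV mouse. Without the 2 Ttr-rich PBS libraries Col8a1 could not be tested and none of the other 6 was called.

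Genes called lower were often high in another Ttr-rich mouse, outside the comparison. Among the 4 NestinTK+ PBS mice, mouse 1 was also rich in Ttr, at 98259 CPM against 1.33, 789 and 211 CPM in the others. Of the 127 genes called lower, 91 (71.7%) were highest in that mouse, compared with 18.1% of all genes tested. Of the 48 genes called higher, 5 were highest there. For 36 of the genes called lower the Ttr-rich mouse was not the highest of the 4.

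PBS mouse 3, which was poor in choroid plexus transcripts, was above every GCV mouse for 104 of the 127 genes called lower, compared with 26.9% of all genes tested. Since that mouse took part in the calls, this describes the called genes and does not test them. Without PBS mice 1 and 2, when the PBS group is PBS mouse 3 alone and is assumed to vary like the other groups, 109 of the 124 that could be tested kept a negative sign, 20 kept the call, and their median log2 fold change was -1.85 in place of -3.23.

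Cd63, a tetraspanin of late endosomes and exosomes, was at 42.2, 30.7 and 63.4 CPM with GCV and 161, 330 and 140 CPM with PBS. The lowest PBS mouse was well above the highest GCV mouse, and the log2 fold change was -2.28 ± 0.40 (95% interval -3.15 to -1.40, adjusted p = 0.451). Its pseudogene Cd63-ps had 0.29 to 0.83 CPM with GCV and 2.46 to 5.56 CPM with PBS, so a small share of these reads cannot be assigned with certainty. Ucp2, a mitochondrial carrier protein, was at 4.48, 22.7 and 18.2 CPM against 73.8, 183 and 119 CPM (log2 fold change -3.09 ± 0.59, adjusted p = 0.602). Fuca1, the lysosomal fucosidase, was at 18.6, 24.1 and 19.3 CPM against 77.4, 125 and 74.3 CPM (-2.20 ± 0.37, adjusted p = 0.451). Without the Ttr-rich libraries the falls of Cd63 (-1.69), Ucp2 (-3.02) and Fuca1 (-1.89) kept their sign and were not called. Fuca1 and Ucp2 were chosen after their values were seen.

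Vcam1, an adhesion molecule of SVZ stem cells and of vessels, was at 7.71, 4.15 and 12.0 CPM with GCV and at 23.8, 51.5 and 65.3 CPM with PBS (log2 fold change -2.62 ± 0.60, adjusted p = 0.602). Its highest value was in PBS mouse 3, and the fall was also called without the Ttr-rich libraries (-3.10). Notch2, a Notch receptor, was at 19.2, 18.2 and 7.43 CPM against 83.7, 90.7 and 30.7 CPM (-2.23 ± 0.56, adjusted p = 0.602), and the call was lost without PBS mouse 1 (-2.06) or PBS mouse 2 (-1.96). Amotl1, an angiomotin-like junction protein, was at 23.5, 36.4 and 24.5 CPM against 71.7, 69.1 and 87.6 CPM (-1.47 ± 0.36, adjusted p = 0.602). Vipas39, a vesicle-trafficking protein, was at 17.9, 20.9 and 39.2 CPM against 66.2, 66.6 and 99.4 CPM (-1.63 ± 0.40, adjusted p = 0.602). Amotl1 and Vipas39 are the genes whose 3 PBS values were closest to each other among these, with PBS mouse 3 the highest in both. Vcam1, Amotl1 and Vipas39 were chosen after their values were seen.

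The genes with the largest fitted changes were present in the PBS mice and nearly absent from the GCV mice. Lepr, the leptin receptor, had no count in any GCV mouse and 169, 544 and 182 counts in the PBS mice (12.7, 25.8 and 20.3 CPM), which is at least 74.1-fold lower when 3 counts are allowed in each GCV library. Bmp4, a ligand of the BMP family, was at 0 in the GCV mice and at 4.38, 8.93 and 4.69 CPM in the PBS mice, at least 22.6-fold lower. Slc1a5, a neutral amino acid transporter, was at 0 against 1.13, 3.66 and 15.1 CPM, at least 25.0-fold lower. Tlr2, a receptor of innate immunity, had 0, 2 and 0 counts against 82, 172 and 626, a pooled ratio of 355 (95% exact counting interval 98.0 to 2935). Zap70, Krt8, Wdr27, Rgs22 and Ttc29 completed the 10 protein-coding genes with the largest falls outside overlap. Such genes entered the test only because all 3 PBS mice passed 1 CPM, so they had to differ: of 84 tested genes with no GCV mouse above 1 CPM, 41 were called. They cannot be tested once a PBS mouse is left out.

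Genes of the motile cilium stood among them. Cfap70, a ciliary axoneme protein, was at 0.07, 0.33 and 0 CPM with GCV and at 11.5, 10.2 and 16.4 CPM with PBS. Tekt4, a tektin of axonemal microtubules, was at 0.15, 0 and 0.08 CPM against 1.81, 9.45 and 29.8 CPM, and Ttc29, an axonemal dynein-associated protein, was at 0 against 6.34, 2.33 and 4.81 CPM. For these 3 genes every PBS mouse was above every GCV mouse, and mouse 3 was the highest for Cfap70 and Tekt4. Among 43 tested genes whose symbols begin with Cfap, Dnah, Dnai, Drc, Tekt or Rsph, a rule set after these values were seen that takes in Cfap70 and Tekt4 themselves, 5 were called lower and none higher, against 0.929% of all genes called lower, and the median log2 fold change was -1.23. Of the 5, Cfap70, Tekt4 and Cfap161 passed the filter only through the PBS mice, so that their calls are no support for the family. The median without the Ttr-rich libraries was -0.50, with 1 call. Cfap70 and Tekt4 were chosen after their values were seen.

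The ependymal list was negative in nearly all members and held no call. Of 19 tested members 18 were negative, 9 had every GCV mouse under every PBS mouse (5.45% of all genes did), and the median was -1.44, or -0.83 without the Ttr-rich libraries, with 0 called and 3 at an unadjusted p under 0.05. Foxj1, the master regulator of motile ciliogenesis, was at 16.6, 13.2 and 29.2 CPM with GCV and at 65.5, 54.1 and 33.0 CPM with PBS (log2 fold change -1.44 ± 0.47, adjusted p = 0.753). The highest members Ccdc153, Tmem212 and Rarres2 had overlapping groups, with Ccdc153 at 56.1, 21.6 and 38.8 CPM against 67.6, 31.2 and 24.1 CPM. The summed level of the list was 268, 122 and 215 CPM against 545, 379 and 305 CPM, and did not overlap. PBS mouse 3, whose choroid plexus sum lay within the GCV range, had the lowest of the 3 PBS sums and was above every GCV sum.

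**Figure D1:**
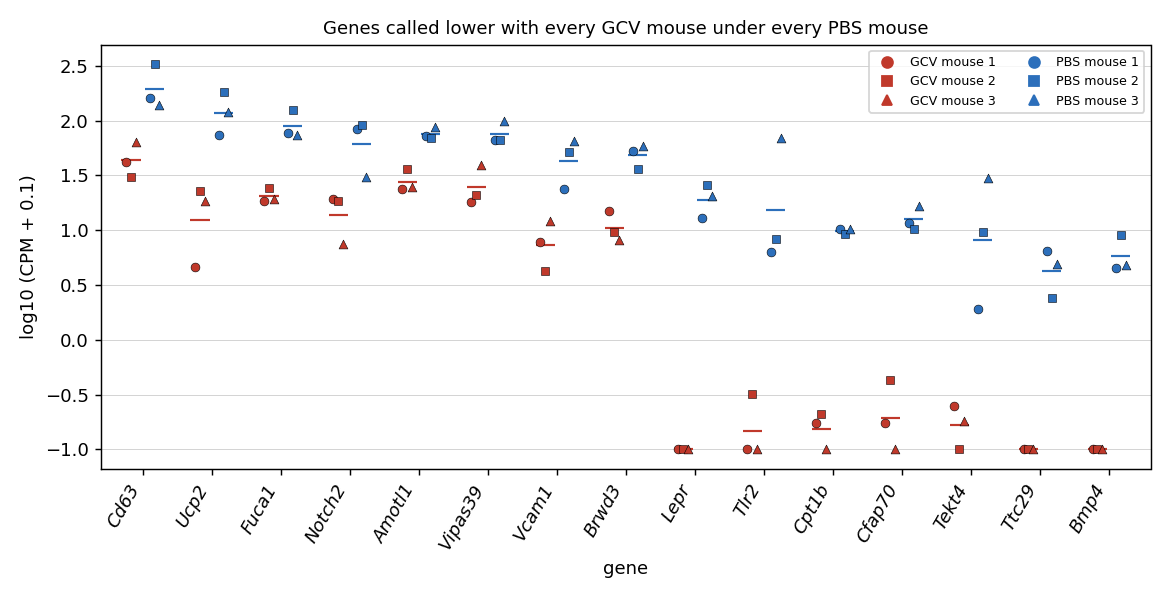
Log10 of CPM + 0.1 (vertical axis) in each NestinTK- mouse for 15 genes called lower whose groups did not overlap, with GCV in red, PBS in blue and a bar at the group mean of the logged values. By this choice every red point lies under every blue point of its gene, PBS mouse 3 (blue triangle) included. Lepr, Tlr2, Cpt1b, Cfap70, Tekt4, Ttc29 and Bmp4 passed the filter only through the PBS mice. Lepr, Ttc29 and Bmp4 sit at the floor of -1 in all GCV mice.

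No gene on the lists for neuroblasts, dividing cells, and activated stem and transit-amplifying cells was called lower. Of 20 tested neuroblast genes 0 were called lower and 1 higher, and the median log2 fold change was 0.07. The summed level of the list was 2156, 2002 and 2373 CPM with GCV and 1685, 1428 and 2224 CPM with PBS. Dcx, the microtubule-associated protein doublecortin of migrating neuroblasts, was at 97.1, 32.8 and 25.4 CPM against 68.0, 37.7 and 47.7 CPM. The log2 fold change was -0.02 (95% interval -1.18 to 1.15), so that neither a 2-fold fall nor a 2-fold rise is outside the interval. Igfbpl1, the secreted IGF-binding protein-like factor that the study follows, was at 27.0, 0.66 and 5.20 CPM against 8.68, 14.6 and 5.70 CPM. The GCV group held both its highest and its lowest value, and the interval ran from -2.52 to 2.77. Prokr2, a receptor that guides neuroblasts to the olfactory bulb, was at 12.9, 3.61 and 13.3 CPM against 2.04, 1.90 and 10.7 CPM (interval -1.58 to 3.53).

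Higher-expressed neuroblast genes had narrower intervals. Tubb3, Gad1 and Celf4 differed by 0.31, 0.08 and 0.24 on the log2 scale, all with overlapping groups. Stmn2, a tubulin-binding protein that mature neurons express as well, was called higher at 161, 208 and 488 CPM against 96.7, 132 and 126 CPM (log2 fold change 1.2 ± 0.37, adjusted p = 0.704), but not in 4 of the 6 fits with a mouse left out, such as that without GCV mouse 3 (0.64). For 7 of the 20 genes the interval excluded a 2-fold fall and for 13 it did not.

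Genes of the dividing cell list did not separate the groups. None of 19 tested members of the dividing cell list was called or reached an unadjusted p under 0.05, and the median was -0.27. Top2a, the topoisomerase of replicating cells, was at 38.2, 30.7 and 33.3 CPM with GCV and at 8.83, 22.7 and 70.0 CPM with PBS, the PBS values lying on either side of the GCV values. Mki67, the proliferation marker, was at 52.2, 16.5 and 29.0 CPM against 21.9, 8.60 and 64.0 CPM, and its interval ran from -1.57 to 1.59. All 19 intervals reached both a 2-fold fall and a 2-fold rise, so that the data leave changes of that size possible for each gene.

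The activated stem and transit-amplifying list had 0 called of 14 and a median of -0.24, while its summed level was 632, 438 and 560 CPM against 635, 653 and 752 CPM. Ccnd2, a D-type cyclin, lay at 226, 206 and 214 CPM against 267, 343 and 432 CPM (log2 fold change -0.73 ± 0.23, adjusted p = 0.733), which is under the 2-fold threshold, with groups that did not overlap. Sox2, the stem cell transcription factor, was at 46.7, 45.3 and 36.5 CPM against 69.1, 48.5 and 74.9 CPM (-0.62 ± 0.34, adjusted p = 0.931). Gfap, the filament protein of astrocytes and stem cells, ranged from 6.45 to 233 CPM with GCV and from 28.8 to 212 CPM with PBS. Cdkn1a, the cell cycle inhibitor p21, was at 11.7, 26.6 and 20.4 CPM against 30.9, 22.2 and 22.2 CPM.

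**Figure D2:**
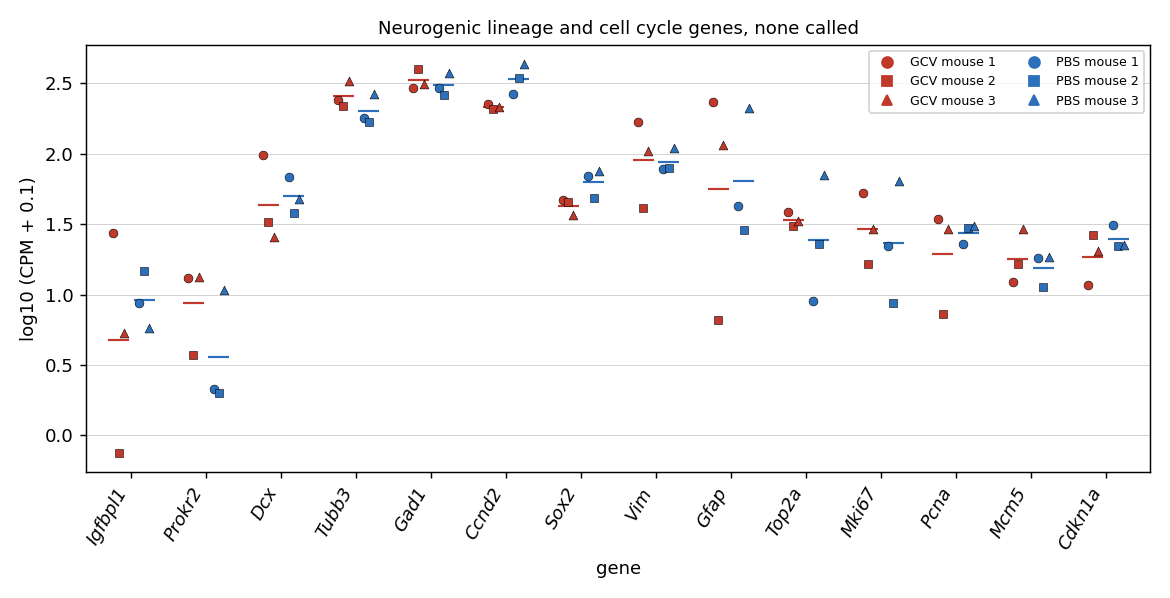
Log10 of CPM + 0.1 (vertical axis) of 14 genes of the neurogenic lineage and the cell cycle in each NestinTK- mouse, with GCV in red, PBS in blue and a bar at the group mean of the logged values. None was called, and the groups overlap for each gene except Ccnd2 and Sox2.

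Cdk14, a cyclin-dependent kinase of the Wnt pathway, was the gene whose rise was called in the most fits. It was at 829, 811 and 452 CPM with GCV and at 227, 74.3 and 127 CPM with PBS, with the lowest GCV mouse nearly 2-fold above the highest PBS mouse. The log2 fold change was 2.26 ± 0.41 (95% interval 1.35 to 3.18, adjusted p = 0.555), or 4.79-fold, and it ran from 1.95 to 2.77 when 1 mouse was left out. Without the Ttr-rich libraries it was 2.43 and was also called, the only one of the 48 rises of which this holds, although all 48 stayed positive. The gene spans 4803391 to 5420312 on chromosome 5 of GRCm38 and shares no exon bases with another annotated gene. Cdk14 was chosen for description after its values were seen.

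Neuronal genes were among the other rises. Slc17a7, the vesicular glutamate transporter of cortical excitatory neurons, was at 42.6, 3.06 and 342 CPM with GCV and at 1.81, 0.76 and 0.11 CPM with PBS (log2 fold change 6.99 ± 1.5, adjusted p = 0.602). GCV mouse 3 was far above the others, and the call was lost without it (4.61). Cck, the neuropeptide cholecystokinin, was at 126, 28.2 and 679 CPM against 0.98, 16.2 and 0 CPM (5.41 ± 1.49, adjusted p = 0.649), and its receptor gene Cckbr was at 14.6, 12.1 and 76.4 CPM against 2.41, 3.32 and 5.03 CPM. Nptx1, a neuronal pentraxin, was at 58.2, 20.1 and 313 CPM against 27.5, 13.9 and 8.05 CPM. Without GCV mouse 3 the calls of Cck (3.68), Cckbr (1.89) and Nptx1 (1.23) were lost as well. They were also lost without PBS mouse 1 for Cck, PBS mouse 1 or 2 for Cckbr, and PBS mouse 2 or 3 for Nptx1. Cck was the only called gene among 11 tested on the interneuron list, whose median log2 fold change was 0.60. The summed level of that list was 1198, 1402 and 1994 CPM with GCV and 1043, 832 and 861 CPM with PBS. Of the 48 genes called higher 62.5% had their highest GCV value in mouse 3, compared with 38.9% of all genes tested. Cckbr and Nptx1 were chosen after their values were seen.

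Of 11 tested excitatory neuron markers 1 was called higher and 6 were at an unadjusted p under 0.05, with a median log2 fold change of 3.33. The median of the markers still tested was 0.32 without GCV mouse 3, 0.41 without GCV mouse 1 and 0.36 without PBS mouse 2. The filter was applied anew in each of these fits, so the medians need not cover the same markers. They therefore cannot show whether the rise itself was smaller without those mice. In the fit without PBS mice 1 and 2 the median was 3.83, with 11 markers tested. The cortical transcription factors Neurod6, Tbr1, Neurod2 and Fezf2 among them, chosen after their values were seen, were at 61.5 to 116 CPM in GCV mouse 3, 9.62 to 24 CPM in GCV mouse 1, 0 to 0.22 CPM in GCV mouse 2 and 0 to 5.89 CPM in the PBS mice. Camk2a, Nrgn and Lamp5, the other members with the highest levels, differed by -0.02, 0.56 and 0.36. The defining striatal genes did not follow: none of 18 medium spiny neuron markers was called, their median was -0.10, and GCV mouse 3 had their lowest sum.

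Genes of other roles were higher in all 3 GCV mice. Tmem132d, a membrane protein of the nervous system, was at 32.2, 10.6 and 25.5 CPM against 1.21, 0.48 and 1.23 CPM (4.50 ± 0.98, adjusted p = 0.602). Sema4a, a class 4 semaphorin, was at 79.4, 30.8 and 38.5 CPM against 5.51, 2.33 and 8.16 CPM (3.19 ± 0.66, adjusted p = 0.602). Atp2b4, a plasma membrane calcium pump, was at 114, 62.8 and 187 CPM against 34.5, 33.1 and 34.5 CPM (1.76 ± 0.38, adjusted p = 0.602). Dusp6, an ERK phosphatase, was the only called gene of 22 tested immediate early genes, at 43.5, 127 and 111 CPM against 32.4, 25.6 and 33.2 CPM (1.58 ± 0.43, adjusted p = 0.619). That call was lost without GCV mouse 2 (1.24), GCV mouse 3 (1.49), PBS mouse 1 (1.63) or PBS mouse 2 (1.48). Cebpd, a transcription factor of the C/EBP family, was at 14.2, 5.03 and 16.8 CPM against 0.45, 0.38 and 0.34 CPM. It entered the test only through the GCV mice, so it had to differ, and it cannot be tested once a GCV mouse is left out. Sema4a and Atp2b4 were chosen after their values were seen.

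Low-level receptors and peptides completed the 10 largest rises outside overlap. Oxtr, the oxytocin receptor, had 138, 28 and 90 counts with GCV and 1, 0 and 0 with PBS, a pooled ratio of 317 (95% exact counting interval 56.5 to 12583). Cort, the peptide cortistatin, had 42, 12 and 20 counts against none, which is at least 8.58-fold higher. C1ql3, Vipr2, Zar1l and Cadps2 were the others. Of 43 tested genes with no PBS mouse above 1 CPM 9 were called, and they are open to the same limit as their counterparts among the falls.

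**Figure D3:**
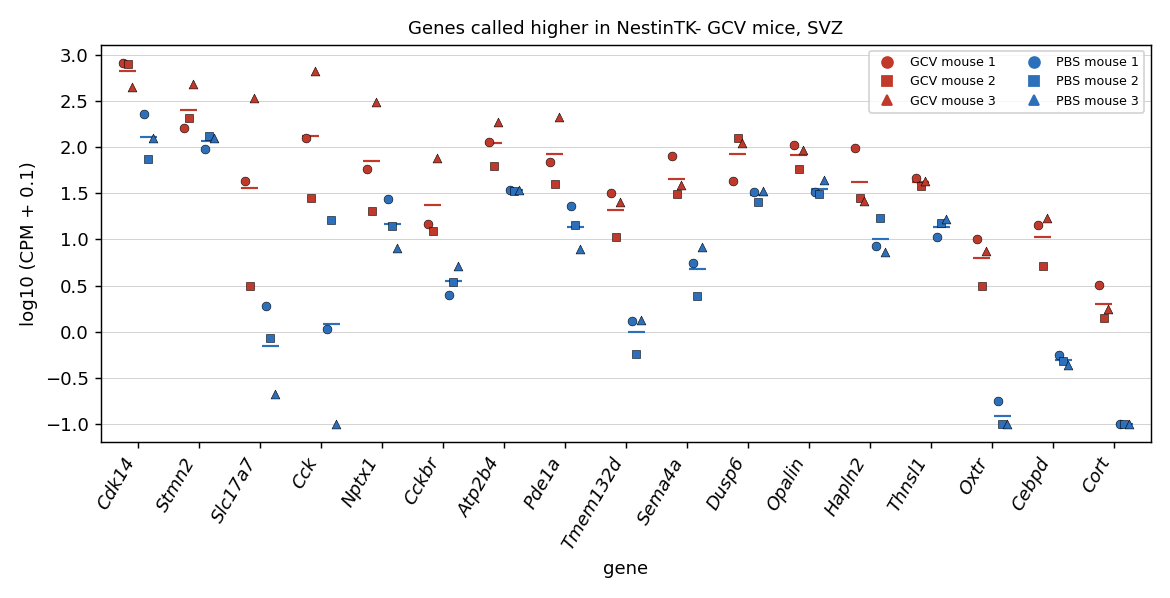
Log10 of CPM + 0.1 (vertical axis) of 17 genes called higher in each NestinTK- mouse, with GCV in red, PBS in blue and a bar at the group mean of the logged values. GCV mouse 3 (red triangle) stands apart for Slc17a7, Cck, Nptx1, Cckbr and Pde1a, while Cdk14 is higher in the other GCV mice than in that mouse.

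The oligodendrocyte list was positive throughout in the SVZ of NestinTK- mice. All 20 oligodendrocyte genes tested were positive, with a median of 0.74. Of them 2 were called higher (0.351% of all genes were) and 7 were at an unadjusted p under 0.05 (5.81% of all genes were). Opalin, a membrane protein of mature oligodendrocytes, was at 107, 57.7 and 94.3 CPM against 32.6, 31.1 and 43.6 CPM (1.22 ± 0.35, adjusted p = 0.669), and its call was lost in 4 of the 6 cases when a mouse was left out. Hapln2, a link protein of the nodes of Ranvier, was at 98.0, 28.2 and 26.2 CPM against 8.30, 17.1 and 7.26 CPM (2.17 ± 0.66, adjusted p = 0.704), and was no longer called without GCV mouse 1 (1.26), PBS mouse 1 (2.00) or PBS mouse 3 (1.94). Mbp, the myelin basic protein gene, overlapped at 4208, 1700 and 2388 CPM against 1250, 1187 and 2519 CPM. The median of the list was 0.26 without the Ttr-rich libraries. In the SVZ of NestinTK+ mice it was -0.17, and in the striatum of the NestinTK- mice -0.41, with 2 members called lower there. For Opalin the effect of GCV in NestinTK+ mice minus that in NestinTK- mice was -2.09, which was called.

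Other glial, vascular and stress lists held few calls. Of 12 oligodendrocyte precursor genes only Bmp4, described above, was called. Bmp4 passed the filter only through the PBS mice, so its call is no support for that list. No member of the astrocyte (15 tested), microglia (16), endothelial (15), pericyte (8), septal neuron (8) or blood cell (5) lists was called. In the list for activated microglia and inflammation Cd63 and Tlr2 were called lower of 11, against 0.929% of all genes called lower. Tlr2 passed the filter only through the PBS mice, so its call is no support for the list. Apoe, the lipid carrier, was at 3180, 2897 and 2137 CPM against 3412, 4278 and 3831 CPM (-0.52 ± 0.24, adjusted p = 0.858). The sum of that list did not overlap, at 2388 to 3386 CPM with GCV and 3799 to 4781 CPM with PBS. Most of that sum was Apoe in every mouse, so it largely repeats the values of that gene.

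The lists for DNA damage, p53 targets and mitochondrial DNA held 1 call between them. None of 23 p53 target and apoptosis genes was called (median -0.14), nor of 17 genes of mitochondrial DNA maintenance (0.09) or 9 encoded by mitochondrial DNA (-0.41). Of 26 DNA damage response genes 1 was called, Xrcc6, the Ku70 subunit of non-homologous end joining, at 11.9, 8.09 and 8.50 CPM against 32.4, 24.3 and 49.3 CPM (-1.93 ± 0.57, adjusted p = 0.683). Leaving out a mouse ended that call in 5 of 6 cases. H2afx, Parp1 and Trp53bp1 had overlapping groups. Of the nucleoside kinases and carriers with the highest levels, Guk1, which phosphorylates guanosine monophosphate, was at 145, 233 and 190 CPM against 113, 148 and 170 CPM (0.36 ± 0.27, adjusted p = 0.951), and Nme1, Hprt and Abcc5 differed by 0.26, 0.35 and -0.17.

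IGF signalling genes other than Igfbp2 were not called. Igf1r, the receptor, was at 124, 67.0 and 61.5 CPM against 88.8, 123 and 82.3 CPM (-0.26 ± 0.35, adjusted p = 0.981). Igf1 was at 0, 4.81 and 5.61 CPM against 1.51, 9.45 and 0.11 CPM, and Igf2, a choroid plexus and meningeal ligand, had 0, 0 and 2 counts against 45, 200 and 1 and did not pass the filter. Across the lists, 16 of 31 held no called member among 239 tested genes, with medians from -1.44 to 0.27.

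**Figure D4:**
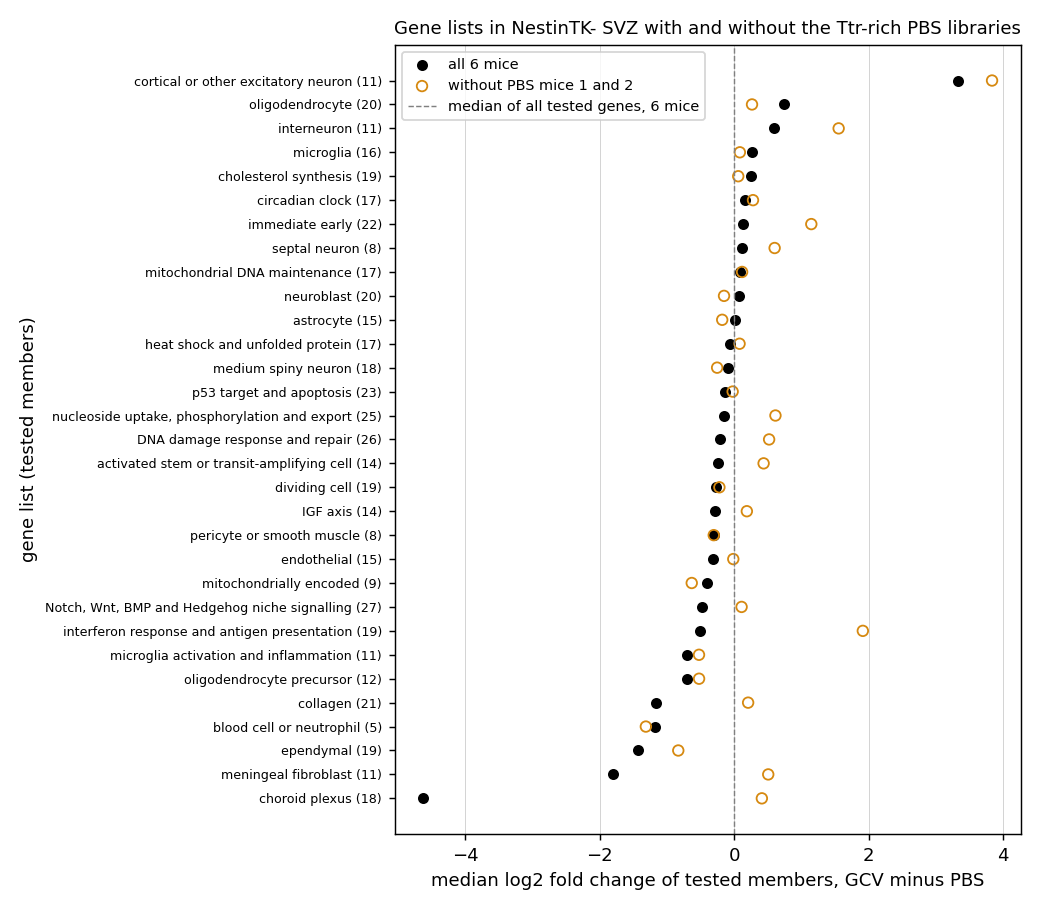
Median log2 fold change (horizontal axis, GCV minus PBS) of the tested members of each of 31 gene lists, with their number in brackets, for all 6 mice (black) and in a fit of 13 SVZ libraries without PBS mice 1 and 2 (open circles). The choroid plexus list moves from -4.63 to 0.41 and the meningeal list from -1.81 to 0.51, while the ependymal list goes from -1.44 to -0.83 and the excitatory neuron list stays above 3.

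NestinTK+ mice received the same drug and vehicle, 5 with GCV and 4 with PBS, and share no library with the comparison above. In them 158 genes were called lower (0.965%) and 37 higher (0.226%) of 16375 tested. Of the 127 genes called lower in NestinTK- mice 103 (81.1%) were negative there too, compared with 49.8% of all genes, and 18 were called, of which 17 were highest in the Ttr-rich NestinTK+ PBS mouse. Without that mouse 64 of 122 (52.5%) were negative, compared with 48.5% of all genes, and 1 was called. Of the 48 genes called higher 33 (68.8%) were positive with or without that mouse, compared with 50.2% and 51.5% of all genes. Cdk14 and Slc17a7 were called higher in both genotypes. In NestinTK+ mice Slc17a7 was at 4.28, 260, 3.34, 0.31 and 7.65 CPM with GCV and at 1.63 to 4.47 CPM with PBS, so that 1 of 5 GCV mice stood far above the rest, and that call was lost without the Ttr-rich mouse.

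Cdk14 was the clearest case. In NestinTK+ mice it was at 505, 936, 1376, 662 and 624 CPM with GCV and at 122, 220, 202 and 79.3 CPM with PBS (log2 fold change 2.56 ± 0.40, also called), so that all 8 GCV mice of either genotype were above all 7 PBS mice. The difference between the genotypes was 0.31 ± 0.57 on the log2 scale and was not called. Across the 15 libraries 4 genes (0.0244%) had every GCV mouse above every PBS mouse and 19 (0.116%) had every GCV mouse below. Of these, Cdk14 was called higher and Cd63, Ucp2 and Bsg lower in NestinTK- mice. Ccnd2, which was not called, was also among the 19, at 126 to 226 CPM in the 8 GCV mice and 243 to 448 CPM in the 7 PBS mice. Cd63 was at 15.8 to 66.3 CPM in the 8 GCV mice and at 70.5 to 330 CPM in the 7 PBS mice. Bsg, the glycoprotein basigin and also picked for its values, was at 245, 303 and 304 CPM against 653, 1055 and 361 CPM in NestinTK- mice. Library order follows treatment in both genotypes.

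The test of the difference between genotypes called 137 genes (0.837% of 16375), and none had an adjusted p under 0.05, the smallest being 0.642, with 833 at an unadjusted p under 0.05. With DESeq2 40 genes and with limma-voom 1 gene reached that adjusted p. Neuroblast genes were among those with the lowest p. Prokr2 was at 0 in all 5 NestinTK+ GCV mice and at 6.10 to 12.1 CPM in the NestinTK+ PBS mice, with the values above in NestinTK- mice (adjusted p of the interaction 0.642). Igfbpl1 was at 0 to 0.24 CPM in NestinTK+ GCV mice and at 3.13 to 39.7 CPM in NestinTK+ PBS mice, and it was called too. Dcx, at 15.1 to 23.8 CPM against 30.6 to 114 CPM in NestinTK+ mice, and Top2a, at 0 to 3.38 CPM against 4.44 to 35.2 CPM, missed the threshold of the interaction.

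The striatum of the same mice was sequenced with a 3' kit, and its 6 libraries held 3755752 to 4693441 counts. There 248 genes (1.8% of 13759 tested) were called lower and 76 (0.552%) higher, and 75 reached an adjusted p under 0.05 with edgeR. Library order follows treatment in the striatum as well, so the order and the drug cannot be told apart there. The tissues were fitted separately, and their difference was not tested. Of the SVZ genes called lower 99 could be tested and 1, Ttr, was called lower in the striatum. Of those called higher 43 could be tested and 5 were called higher (Atp2b4, Pde1a, Cadps2, Slc17a7 and Cck). None was called in the opposite direction.

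Ttr was at 0.53, 1.45 and 1.37 CPM in the striatum of GCV mice and at 30.0, 16.8 and 12.9 CPM in that of PBS mice (log2 fold change -4.05 ± 0.46, adjusted p = 0.00308 with edgeR). There PBS mouse 3 was among the high ones, unlike in the SVZ. Foxj1 was at 7.46, 2.90 and 7.29 CPM against 31.0, 14.5 and 22.3 CPM (-1.89 ± 0.37, adjusted p = 0.0373 with edgeR), with groups that did not overlap in either tissue. Slc17a7 was at 4.53, 56.6 and 398 CPM against 7.03, 2.56 and 4.61 CPM, and Cck at 10.9 to 210 CPM against 11.2 to 20.1 CPM. GCV mouse 3 was the highest for both genes in both tissues, while GCV mouse 1 was raised in the SVZ and not in the striatum. Cdk14 was at 43.9, 44.7 and 65.4 CPM against 37.6, 33.9 and 26.9 CPM (0.69 ± 0.21, adjusted p = 0.104), a non-overlapping rise under 2-fold. Cd63 was at 238, 198 and 304 CPM against 389, 390 and 404 CPM (-0.63 ± 0.16, adjusted p = 0.0636), and it too was under 2-fold with groups that did not overlap.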

How the data were processed

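SVZ RNA was made into libraries with SMART-Seq v4 and striatum RNA with a QuantSeq 3' kit, per the labels. The deposited values are raw read counts for each gene, which the authors made from trimmed reads (Trimmomatic 0.36) aligned with STAR 2.5.3a to GRCm38 and counted with featureCounts, per the submitters' processing notes. The strand setting is not given in the sources used here, so overlapping antisense genes cannot be told apart. No value was normalized before deposit.

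Genes above 1 CPM in 3 or more of the 6 libraries were tested with edgeR 4.0.16 (TMM factors, quasi-likelihood test), and called at p of at most 0.01 and a 2-fold change, the thresholds of the study's methods. CPM are counts per 1000000 of a library's total. A standard error is the log2 fold change divided by the root of its F statistic. Adjusted p-values are Benjamini-Hochberg over all genes tested. The interaction of genotype and GCV was fitted on all 15 SVZ libraries and the striatum on its own 6. The p-values measure the spread between mice, 1 library each. The NestinTK- SVZ fit was tried on simulated counts. There it called 23% of genes given a log2 change of 1 and 59.6% of those given 2. Of the unchanged genes it called 0.798%. The changed genes were drawn only from those with a mean level well above the filter, so these rates do not cover genes near it. Counts were drawn for each gene on its own, so differences shared by many genes of a mouse were not simulated. Limma-voom (limma 3.58.1) and DESeq2 1.42.0 were alternatives, with other filters, scalings and sample choices, and each library left out in turn. Exact permutation tests used scipy 1.17.1.

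The comparison and the gene lists were chosen with earlier results of these data known. The genes named are 13 fixed genes, the 10 protein-coding genes that rose most and the 10 that fell most without overlap between the groups, the called and the 4 highest members of lists, and the 5 with the lowest interaction p, with others stated as chosen after their values were seen. Positions are from GENCODE vM21 (GRCm38), to which 93.3% of symbols matched. Some genes are not reported here.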

Additional observations from a re-analysis of the deposited data

Results flagged for a closer look

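The 5 genes with the lowest p in the test of genotype by GCV are given here because the effect of GCV differed between NestinTK+ and NestinTK- mice at the nominal threshold. None had an adjusted p under 0.05 with edgeR.

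Adra2a, the alpha-2A adrenergic receptor, was at 29.1, 0 and 21.3 CPM in NestinTK- GCV mice and at 0.08, 0 and 0 CPM in NestinTK- PBS mice, while in NestinTK+ mice it was at 0 to 0.12 CPM with GCV and 0.72 to 28.1 CPM with PBS (unadjusted p = 5.33e-05). It did not pass the filter of the NestinTK- comparison. For Prokr2 the unadjusted p was 7.84e-05, with every NestinTK+ GCV mouse at 0. Cebpd, which passed the filter of the NestinTK- comparison only through the GCV mice, was higher with GCV there. In NestinTK+ mice it was at 0.12 to 3.55 CPM with GCV and at 7.94 to 15.9 CPM with PBS (unadjusted p = 0.000259). Gm10069, an annotated locus that shares exon bases with 2 other genes, was at 0.15, 11.3 and 1.90 CPM in NestinTK- GCV mice and at 0 in NestinTK- PBS mice, against 0 in every NestinTK+ GCV mouse and 0.95 to 1.65 CPM in NestinTK+ PBS mice (unadjusted p = 0.000403). For Igfbpl1 the unadjusted p was 0.000422.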

How the results depend on the processing

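No paired analysis was possible because the labels give no replicate numbers that tie a GCV mouse to a PBS mouse. Leaving out 1 mouse at a time gave 32 to 150 genes lower, 9 to 91 higher, 0 to 10 at an adjusted p under 0.05 (10 without PBS mouse 3), 87 to 162 in the genotype interaction and 159 to 599 in the striatum. With PBS mice 1 and 2 and GCV mouse 3 all left out, 224 were higher. DESeq2 gave 252 lower, 106 higher, 97 at an adjusted p under 0.05 and 250 in the interaction, limma-voom 66 lower, no filter 395, 152 and 163, and the Ttr share as a covariate 77 lower and 78 higher. Asking for an adjusted p under 0.1 left 0 lower and 0 higher. Without the Ttr-rich libraries 260 were higher and, with that of the NestinTK+ mice also out, 252 differed in the interaction. The cause of these differences was not tested.

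Changes of sign were all in genes called lower that were high in PBS mice 1 and 2. Without those libraries the log2 fold change was 0.067 for Col9a3, 0.40 for Enpp2, 6.59 for F5, 0.27 for Ifi27, 0.0038 for Igfbp2, 5.07 for Kcne2, 2.78 for Kl, 4.53 for Pcolce and 0.47 for Slc29a4. With the Ttr share as a covariate it was 5.63 for Col8a1, 0.18 for Col9a3, 1.70 for F5, 0.43 for Igfbp2, 2.04 for Kcne2, 0.013 for Kl, 1.92 for Pcolce and 0.11 for Ttr. Over all fits with single mice left out, including that without GCV mouse 3 and the Ttr-rich libraries, the ranges were -3.16 to 0.20 for Col9a3, -4.75 to 0.26 for Enpp2, -7.22 to 6.25 for F5, -3.26 to 0.58 for Ifi27, -8.34 to 5.66 for Kcne2, -8.35 to 2.23 for Kl, -5.41 to 4.76 for Pcolce and -5.88 to 0.98 for Slc29a4. Of all comparisons of a named gene with its reported value, 2882 kept direction and side of the threshold, 384 lost and 14 gained a call, and 25 changed sign. With 3 mice a group, all 19 intervals of the dividing cell genes reached a 2-fold change in both directions.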
